A study of Drosophila melanogaster with 12 samples.

Results

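The genes described here encode subunits of the proteasome, the protease particle that degrades ubiquitin-tagged proteins. They were taken by name from an exon count table. A gene entered if its name began with Prosalpha, Prosbeta, or Pros, Rpn or Rpt followed by a digit. This gave 40 of the 16413 gene names in the table. RNA came from whole Drosophila melanogaster larvae of the 3rd instar, in 4 groups of 3 libraries lettered A, B and C. Wild-type larvae and mlx1 mutant larvae had all been raised on plates of 10% yeast. The 2 low-sugar groups, 1 of each genotype, went to fresh plates of the same food and were collected 1.5 h later. The 2 high-sugar groups went to 10% yeast with 20% sucrose and were collected 8 h after the transfer. A diet contrast below therefore also holds the hours, and diet and hours cannot be told apart. Library totals ranged from 8923055 to 12506335 counts. Each genotype was 1 line. The labels give the mutant only as mlx1 and do not name the sex of the larvae.

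The proteasome is built from a core and a regulatory particle that caps it. In the core, outer rings of alpha subunits gate the entry, and inner rings of beta subunits carry the proteolytic sites. In the regulatory particle, a ring of Rpt ATPases unfolds the substrate. The Rpn subunits beside it form the rest of the base, which holds ubiquitin receptors, and the lid, which removes the ubiquitin. In Drosophila many subunits also have a second gene that is expressed mainly in the testis. Mlx pairs with Mondo, a transcription factor that responds to sugars, and the study compared sugar responses with and without it. On low sugar its gene, listed as bigmax, had 27.04 ± 0.73 CPM without the mutation and 0.694 ± 0.201 CPM with it (SD, n = 3). On high sugar it had 32.6 ± 1.92 and 0.893 ± 0.168 CPM. CPM here are counts scaled to the library's total and normalised by TMM factors.

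The 40 genes fell apart by level. Above 5 CPM, as a mean over the 12 libraries, lay 27 genes, called subunit genes below. They comprised 6 of the alpha ring, 6 of the beta ring, 5 of the ATPase ring, 3 of the rest of the base and 7 of the lid. Another 11 carried the names of testis-type paralogs and were all below that level. The remaining 2 were Rpn13R, at 1.80 CPM before TMM, and Prosalpha1, which had 0 counts in every library. A count of 0 allows Prosalpha1 up to 0.0244 CPM over the 12 libraries, for counting error only. Its neighbour CG30382 (Prosalpha1R) was also at 0 in every library. Near-identical copies can lose reads in counting, so neither level is certain, and the cause of the 0 was not tested. Of the 40 names, 7 were older symbols. Pros25 stands for Prosalpha2, Pros29 for Prosalpha3, Pros28.1A for Prosalpha4T1, Pros26 for Prosbeta6, Prosbeta5R for Prosbeta5R1, Pros26.4 for Rpt2 and Pros54 for Rpn10.

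Subunit genes stood well above most genes per kilobase of exon. Their median was 88.7 CPM per kb, against 10.7 for the 10045 genes that passed the filter on low counts. The highest was Prosalpha7 at 130 CPM per kb, followed closely by Pros26 (Prosbeta6) at 129.7 and Prosbeta2, the trypsin-like protease subunit, at 128. The lowest were Rpn9, a scaffold subunit of the lid, at 27.3 CPM per kb, and Rpn6, which in yeast clamps the regulatory particle to the core, at 35.1. The range from Rpn9 to Prosalpha7 was 4.77-fold. Part of the low value of Rpn9 goes with its exons. In 3 of its 7 exon entries the count was 0. Over the exon length with counts, Rpn9 stood at 42.8 CPM per kb. Prosalpha6 moved in the same way from 78.0 to 115 CPM per kb, since 2 of its 4 entries were at 0. Beside the subunit genes, the paralogs named for the testis were below 2 CPM per kb in every group.

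**Figure D1:**
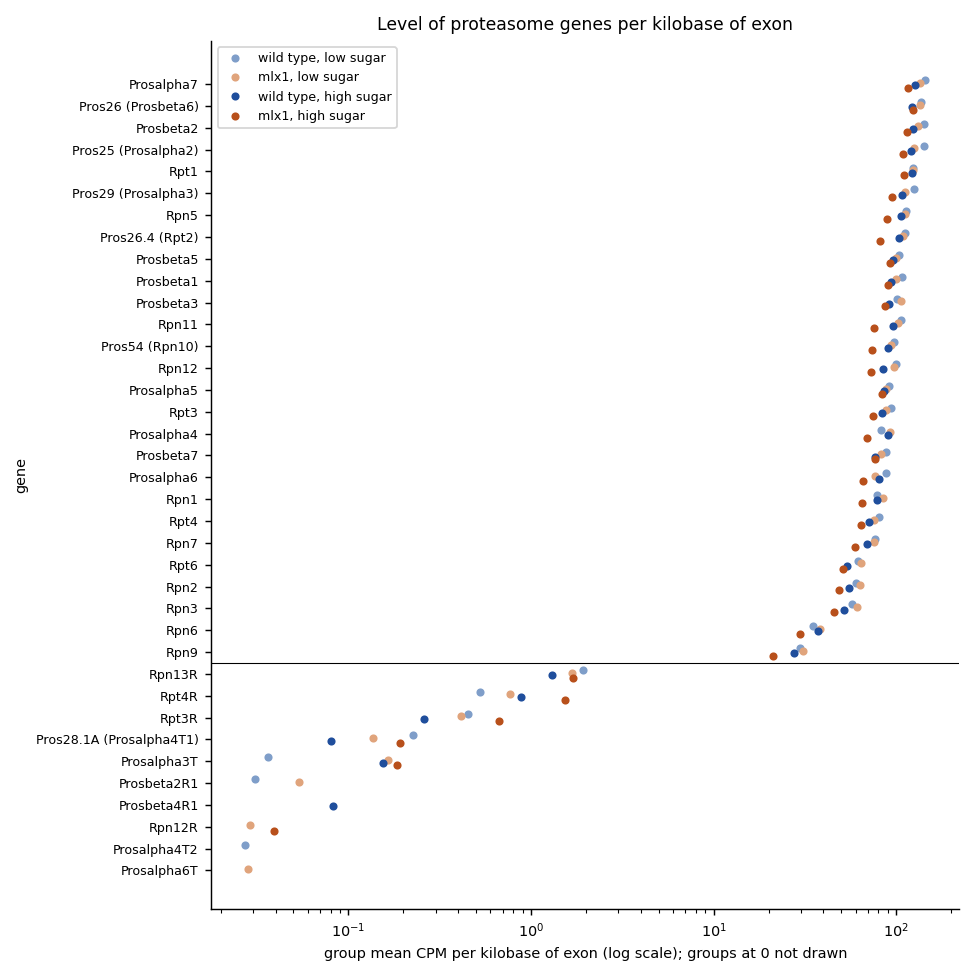
Mean level of each gene in each group, in CPM per kilobase of exon on a log axis, with 1 point per group (mean of 3 libraries) and groups at 0 left out. The 27 subunit genes above the line lie between 21.1 (Rpn9, mutants on high sugar) and 145 (Prosalpha7, wild type on low sugar), and the 10 other genes with any count lie below 2.

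Summed over the 27 subunit genes, libraries A, B and C of wild type on low sugar held 3580, 3293 and 3345 CPM. Mutants on low sugar held 4074, 3028 and 2945.5 CPM. Wild type on high sugar held 2908, 2858.5 and 3632 CPM, and mutants on high sugar 2763, 2779 and 2710 CPM. Mutants on high sugar were thus below the other 9 libraries, and their 3 values were close together. In 2 groups, mutants on low and wild type on high sugar, 1 library set most of the spread. Mutant library A on low sugar and wild-type library C on high sugar each exceeded their group mean in all 27 subunit genes. The group means were 3406 ± 153, 3349 ± 629, 3133 ± 433 and 2751 ± 36.2 CPM (SD, n = 3), in the same order. Larvae are mixed tissue, so fewer cells that express these genes and less RNA per cell cannot be told apart.

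Both high libraries had few transcripts of cuticle genes, whose expression follows the moult. The list took all 118 names beginning with Cpr, Lcp, Twdl, Pcp or Edg, of which 92 were tested. It is titled larval cuticle in the figure, but the names were not limited to larval genes. On low sugar the mean log2 CPM of cuticle genes was 3.999, 6.19 and 5.71 in wild type and 3.53, 6.13 and 4.47 in mutants. On high sugar it was 4.91, 4.77 and 3.03 in wild type and 3.83, 3.99 and 4.55 in mutants. In wild type the lowest value of a group fell in library A on low sugar and library C on high sugar, and in mutants in library A on either diet. After group means were removed, the mean log2 CPM of the subunit genes and that of the cuticle genes had a Pearson's r of -0.76 over the 12 libraries, as a description. Results below are also given without the library lowest in cuticle genes of each group, which is A in 3 groups and C in wild type on high sugar. This choice was made after the values were seen. In every group but mutants on high sugar the library left out was also the highest in subunit genes, so calls from that fit are no independent support.

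**Figure D2:**
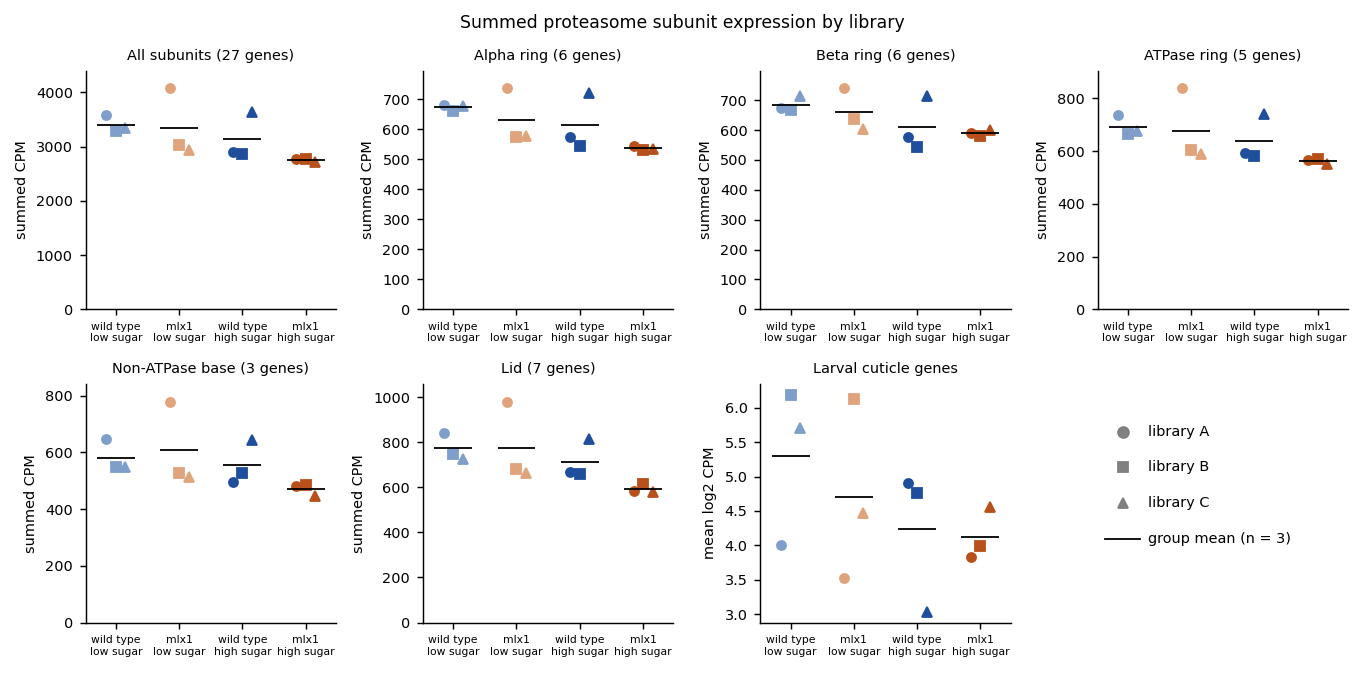
Summed CPM of all 27 subunit genes and of each sub-complex, and the mean log2 CPM of cuticle genes (panel titled larval cuticle), in each library (points, marked by letter) with the group mean (line, n = 3). Mutant library A on low sugar (4074 CPM) and wild-type library C on high sugar (3632 CPM) stand above their groups and have the lowest cuticle value of their groups (3.53 and 3.03).

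Subunit genes varied together. Over the 12 libraries, Pearson's r of log2 CPM between subunit genes had a median of 0.847 over 351 pairs, and 0.854 after group means were removed. These r describe genes measured in the same libraries and share each library's composition. The loosest pair still had an r of 0.395. Pros54 (Rpn10), a ubiquitin receptor, followed the mean of the other 26 genes most closely (r = 0.984) and Prosbeta7, of the beta ring, least closely (0.782). Among the 10016 other genes tested, the median r with the subunit mean was -0.01, and 372 of them (3.71%) were at or above 0.782. Outside the 40 genes, the closest was Mov34 (Rpn8), a lid subunit that the name rule does not take (r = 0.973 over 12 libraries). It was followed by epsilonCOP (0.956), Txl (0.948), Gmer (0.942) and CG16912 (0.931). The spread of each subunit gene over the libraries was small. Its SD of log2 CPM had a median of 0.206, against 0.308 for all genes tested.

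**Figure D3:**
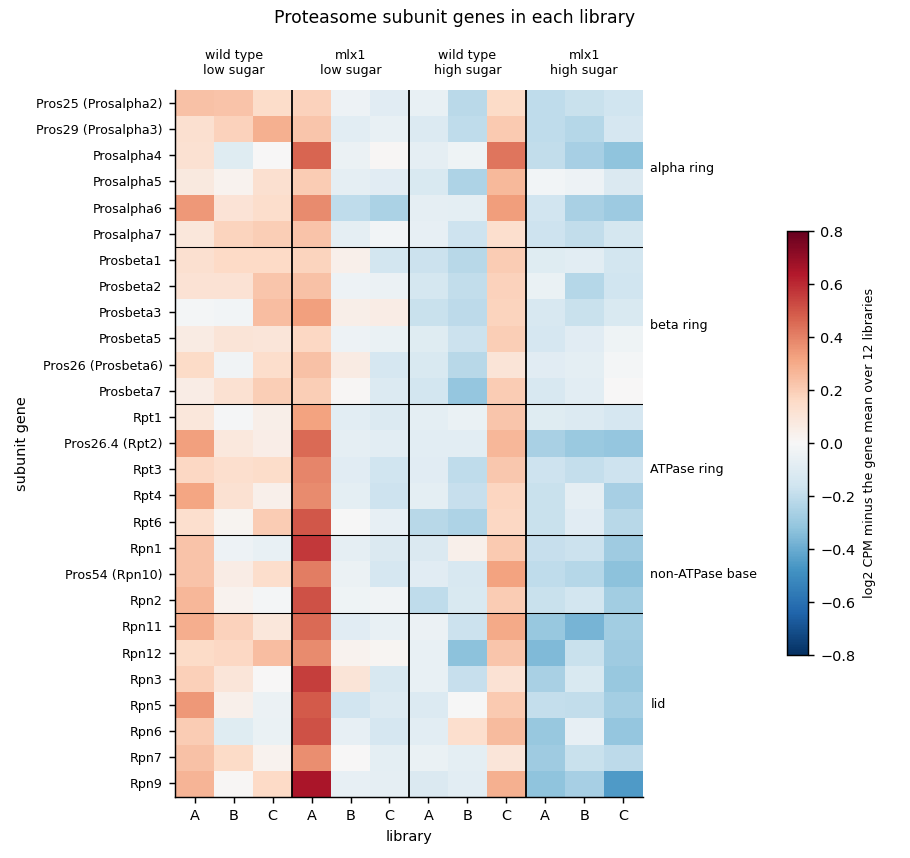
log2 CPM of each subunit gene in each library minus that gene's mean over the 12 libraries, by sub-complex (rows) and group (columns). Columns rather than rows carry the pattern: mutant library A on low sugar and wild-type library C on high sugar are high in nearly every row, and the 3 libraries of mutants on high sugar are low in nearly every row.

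In mutants 2 genes of the lid, Rpn9 and Rpn12, fell from low to high sugar, and the other 25 subunit genes did not pass the test. All 27 had fold changes below 0, against 51.1% of all genes tested, with a median of -0.30 on the log2 scale, against -0.01 for all genes. The call threshold was an adjusted p of 0.05 in edgeR's quasi-likelihood test, by Benjamini-Hochberg over all 10045 genes. Of the 29 rule-taken genes that could be tested, 0 were called higher and 2 lower, while 29.3% of all genes were called in this contrast and 15.7% were called lower. At an unadjusted p under 0.05, 11 of the 27 were lower, against 21.4% of all genes. In 17 of the 27 every library on high sugar lay below every library on low sugar, which held for 23.2% of all genes. The subunit genes varied together over the same libraries, with a median r of 0.854 after group means. Counts among the 27, here and below, are therefore not separate observations.

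Rpn9 (3R:19557097-19559184 in the positions of the table, whose build is not given in the sources used here) stood at 70.6, 43.0 and 42.7 CPM in libraries A, B and C of mutants on low sugar. On high sugar it stood at 35.9, 37.3 and 32.8 CPM. The groups did not overlap, and library A on low sugar was far above the other 2. Rpn9 fell by 0.56 ± 0.19 on the log2 scale (SE, edgeR adjusted p = 0.0401). In wild type it stood at 54.1, 45.2 and 50.2 CPM on low sugar and 41.5, 42.4 and 54.8 CPM on high sugar, where the groups overlapped. Rpn12, the lid subunit that joins late in assembly in yeast (3L:16576128-16577122), stood at 113, 89.0 and 87.9 CPM on low sugar in mutants and at 68.1, 77.1 and 71.4 CPM on high sugar. It fell by 0.42 ± 0.14 on the log2 scale (edgeR adjusted p = 0.0409), again with no overlap. Without library A of mutants on low sugar neither gene was called. Rpn9 was then at -0.28 (adjusted p = 0.151) and Rpn12 at -0.29 (0.141), and the median over the 27 was -0.12. Leaving out library A or C of mutants on high sugar ended both calls as well, and leaving out library B ended that of Rpn9. Without the library lowest in cuticle genes of each group 0 genes were called, where 23.2% of all genes were. In that fit 4 of the 29 stood at an unadjusted p under 0.05. The share of all genes at this unadjusted threshold is not given, so the 4 cannot be compared with it. With the cuticle mean as a covariate, 16 were called lower, where 22.1% of all genes were. Some marker genes of other tissues moved with the same contrast, in which 13.5% of all genes were called higher and 15.7% lower. Of 7 midgut markers 3 were called higher and 0 lower, with a summed level of 2895 to 3325 CPM on low and 3162 to 3569 CPM on high sugar. Of 9 muscle markers 1 was called higher, with a sum of 64593 to 76930 and 78214 to 84227 CPM. Of 6 neuron markers 0 were called. Of 7 fat body markers 2 could be tested, and they moved in opposite directions, GRHR (AkhR) at 1.61 ± 0.18 and Rfabg (apolpp) at -1.13 ± 0.26 on the log2 scale. The fat body sum was 5218 to 9981 and 2972 to 4191 CPM, with 1 to 3 of the 7 at 0 in each library. The part of these tissues in the result was not tested.

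Other lid genes had values near those 2. The lid's metalloprotease Rpn11, which cuts ubiquitin chains off the substrate, stood at 155, 106 and 109 CPM on low sugar and 91.8, 87.4 and 93.4 CPM on high sugar in mutants. The groups did not overlap, but its log2 fold change of -0.44 ± 0.16 missed the threshold (edgeR adjusted p = 0.0538). Rpn3 (-0.43 ± 0.15, adjusted p = 0.0542) and Rpn7 (-0.34 ± 0.12, 0.0544) missed it by as little. Rpn6 stood at 96.2, 64.6 and 61.6 CPM on low sugar and 54.8, 64.6 and 54.5 CPM on high sugar, where the groups overlapped (-0.36 ± 0.17, adjusted p = 0.136). The median over the 7 lid genes was -0.42, and -0.22 without library A of mutants on low sugar.

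Outside the lid no subunit gene was called in mutants between diets. Median fold changes were -0.37 for the 3 base genes without ATPase, -0.24 for the ATPase ring, -0.22 for the alpha ring and -0.13 for the beta ring, on the log2 scale. Without library A of mutants on low sugar they were -0.16, -0.05, -0.12 and -0.05, in the same order. The base scaffold Rpn1, which in yeast docks shuttle proteins, stood at 341, 219 and 213 CPM on low sugar and 203, 205 and 189 CPM on high sugar (-0.38 ± 0.17, adjusted p = 0.121). Pros54 (Rpn10) stood at 165, 121 and 114 CPM on low sugar and 108, 106 and 99.4 CPM on high sugar (-0.35 ± 0.15, adjusted p = 0.11). In both genes the groups lay apart, with library A on low sugar highest. The ATPase Rpt1 stood at 226, 170 and 167 CPM on low sugar and 169, 168 and 165 CPM on high sugar, with an overlap between libraries A and B on high sugar and C on low sugar (-0.17 ± 0.13, adjusted p = 0.354). Among ATPases Pros26.4 (Rpt2), whose tail in yeast helps open the gate of the core, had the lowest value (-0.41 ± 0.15, adjusted p = 0.0651).

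In the core, Prosalpha7 stood at 148, 120 and 125 CPM on low sugar and 113, 110 and 115 CPM on high sugar in mutants (-0.22 ± 0.11, adjusted p = 0.15). Prosalpha4 had the lowest value of the alpha ring, at -0.42 ± 0.16 (adjusted p = 0.0661). Prosbeta5, the chymotrypsin-like protease subunit, stood at 125, 108 and 107 CPM on low sugar and 101, 104 and 109 CPM on high sugar. These groups overlapped (-0.12 ± 0.11, adjusted p = 0.467). Prosbeta1 (-0.14 ± 0.12) and Prosbeta2 (-0.20 ± 0.12), the other proteolytic subunits, missed the threshold too (adjusted p = 0.436 and 0.238). The sum of the lid genes over that of the beta ring genes, looked at after the values were seen, was 0.990, 1.06 and 0.964 in mutants on high sugar. In mutants on low sugar it was 1.33, 1.07 and 1.10. In wild type it was 1.16, 1.22 and 1.14 on high sugar and 1.25, 1.12 and 1.01 on low sugar. Mutants on high sugar overlapped neither mutants on low sugar nor wild type on high sugar, but they overlapped wild type on low sugar.

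**Figure D4:**
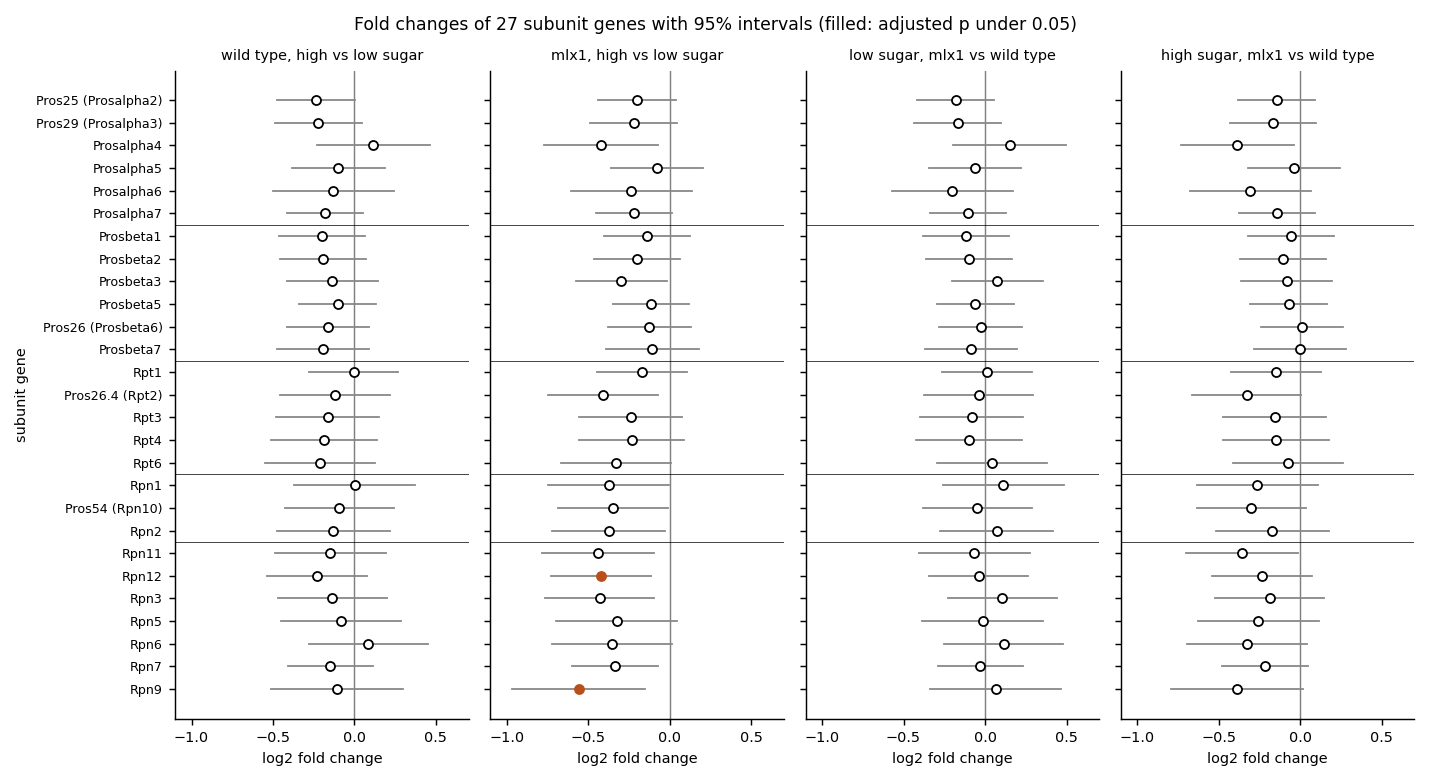
log2 fold change of each subunit gene (points) with its 95% interval (lines) in the 4 contrasts, by sub-complex. In mutants all 27 points lie below 0 and the filled points mark Rpn9 (-0.56) and Rpn12 (-0.42), the only subunit genes with an adjusted p under 0.05.

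In wild-type larvae no subunit gene was called between high and low sugar. By edgeR 0 of 29 tested genes were called, while 23.1% of all genes were, and DESeq2 called 0. At an unadjusted p under 0.05 stood 0 of the 27, against 36.6% of all genes. Fold changes were below 0 in 24 of the 27, against 55.0% of all genes, with a median of -0.14, against -0.05. In all 27 the libraries of both diets overlapped, which held for 6025 of the 10045 genes tested. Every high-sugar library lay below every low-sugar one in 0 of the 27, against 21.6% of all genes. The 95% intervals of the 27 log2 fold changes lay between -0.55 and 0.46, which is the range of change that these libraries allow. Prosalpha7 stood at 135, 143 and 145 CPM on low sugar and 121, 113 and 139 CPM on high sugar. Prosbeta5 stood at 116, 119 and 119 CPM on low sugar and 104, 98.9 and 127 CPM on high sugar. In both genes libraries A and B on high sugar lay below all low-sugar libraries, and library C did not. Rpn11 stood at 138, 128 and 120 CPM on low sugar and 110, 100 and 139 CPM on high sugar, with the same order. Rpt1 differed little, at 193, 180 and 187 CPM on low sugar and 171, 174 and 211 CPM on high sugar.

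That library moved the wild-type result. The median over the 27 subunit genes was -0.26 without library C on high sugar and -0.07 without library B on high sugar, and neither fit called a gene. Without the library lowest in cuticle genes of each group, 9 of the 29 were called lower and 0 higher, where 13.6% of all genes were called lower. They were Pros25 (Prosalpha2), Pros29 (Prosalpha3) and Prosalpha7 of the alpha ring, Prosbeta1, Prosbeta2 and Prosbeta7 of the beta ring, the ATPases Rpt3 and Rpt6, and Rpn12. The libraries left out of wild type were its highest in subunit genes on either diet. With the cuticle mean as a covariate 4 were called lower, where 16.9% of all genes were. Some tissue markers moved with this contrast too, in which 11.5% of all genes were called higher and 11.6% lower. Of 7 midgut markers 5 were called higher and 0 lower, with a sum of 3175 to 3806 CPM on low and 4264 to 5588 CPM on high sugar. Of 9 muscle markers 3 were called higher (50599 to 74689 and 68528 to 74698 CPM), and of 6 neuron markers 0 were called. Of the 2 fat body markers tested 1 was called higher, GRHR (AkhR) at 1.87 on the log2 scale. Rfabg (apolpp), at 0.53, was not called. The sum of all fat body markers was 5089 to 7598 CPM on low and 6653 to 10910 CPM on high sugar, and these ranges overlapped. Their part in the wild-type values was not tested.

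Between genotypes on low sugar no subunit gene was called. By edgeR 0 of 29 were called, while 3.59% of all genes were, and DESeq2 called 0. At an unadjusted p under 0.05 stood 0 of the 27, against 18.4% of all genes. The median was -0.04, and 18 of 27 fold changes were below 0, against 49.2% of all genes. The 95% intervals ran from -0.57 to 0.50. Rpn1 stood at 270, 224 and 221 CPM in wild type on low sugar, against 341, 219 and 213 CPM in mutants. Rpt1 stood at 193, 180 and 187 CPM against 226, 170 and 167 CPM, so that mutants were both above and below wild type. Library A of mutants set this balance. Without it all 27 fold changes were below 0, with a median of -0.18, and 0 genes were called. Leaving out mutant library B or C turned the median to 0.02 or 0.06. With the letter as a block, in a fit of only these 2 groups, 0 were called as well (median -0.06). Of the midgut, muscle, fat body and neuron markers 0 were called by edgeR in this contrast. At an unadjusted p under 0.05 stood 4 of the 7 midgut, 5 of the 9 muscle and 0 of the 6 neuron markers.

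Between genotypes on high sugar no subunit gene was called either. By edgeR 0 of 29 were called, while 13.9% of all genes were, and DESeq2 called 0. Fold changes were below 0 in 26 of the 27, against 49.5% of all genes, with a median of -0.17, against 0.00. At an unadjusted p under 0.05, 2 were lower, against 13.4% of all genes. These were Prosalpha4 (-0.39 ± 0.16, adjusted p = 0.141) and Rpn11 (-0.36 ± 0.16, adjusted p = 0.168). In 10 of the 27 every mutant library lay below every wild-type library, against 18.6% of all genes. Prosalpha4 stood at 92.2, 94.8 and 130 CPM in wild type and 84.5, 80.6 and 77.7 CPM in mutants. Pros54 (Rpn10) stood at 117, 114 and 156 CPM in wild type and 108, 106 and 99.4 CPM in mutants. In both genes library C of wild type stood apart from A and B. Without that library the median was -0.05. With the cuticle mean as a covariate 4 genes were called lower, where 11.8% of all genes were. In this contrast 7.06% of all genes were called lower in mutants and 6.80% higher. Of 7 midgut markers 4 were lower in mutants, with a sum of 4264 to 5588 CPM in wild type and 3162 to 3569 CPM in mutants. Of the 2 fat body markers tested 1 was lower, and the sum of all fat body markers was 6653 to 10910 and 2972 to 4191 CPM. Of 9 muscle markers 1 was higher (68528 to 74698 and 78214 to 84227 CPM), and of 6 neuron markers 0 were called. Their part in these values was not tested.

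No subunit gene had a called difference between the diet responses of the genotypes. The interaction, which subtracts the wild-type diet response from the mutant one, was called in 0 of 29 genes by edgeR and by DESeq2, while 6.89% of all genes were called. It was below 0 in 21 of the 27, against 49.6% of all genes, with a median of -0.16. Prosalpha4 alone (-0.54 ± 0.23, adjusted p = 0.169) was below 0 at an unadjusted p under 0.05, against 12.7% of all genes. All 7 lid genes had an interaction below 0, with a median of -0.29, and the beta ring had a median of 0.01. Without the library lowest in cuticle genes of each group the median over the 27 turned to 0.14. In that fit the 7 lid genes lay on both sides of 0, from -0.19 (Rpn6) to 0.14 (Rpn12). Without library A of mutants on low sugar the median over the 27 was -0.0036, and without wild-type library C on high sugar -0.03. The 95% intervals lay between -1.03 and 0.49, wider than those of the diet contrasts.

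Paralogs named for the testis were rare in these larvae. Rpt4R, the copy of the ATPase Rpt4, was the most frequent, with 156 counts in all. On low sugar it had 8, 13 and 1 counts in wild type and 15, 7 and 14 in mutants. On high sugar it had 14, 7 and 15 counts in wild type and 17, 23 and 22 in mutants. Mutants on high sugar lay above all other libraries, yet the fold change between diets in mutants (0.99 ± 0.52, edgeR adjusted p = 0.185) and between genotypes on high sugar (0.79 ± 0.53, 0.384) missed the threshold. Rpt3R had 81 counts in all, between 3 and 14 in each library, and mutants on high sugar (6, 14 and 9) lay above wild type on high sugar (4, 4 and 3). Prosalpha3T had 15 counts and Pros28.1A (Prosalpha4T1) 17 over the 12 libraries. Prosbeta2R1 had 3, Prosbeta4R1 and Rpn12R 2 each, Prosalpha4T2 and Prosalpha6T 1 each, and Prosbeta4R2 and Prosbeta5R (Prosbeta5R1) 0. Rpt4R and Rpn13R passed the filter on low counts, and neither was called in any contrast.

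Testis markers were correspondingly low. The 17 markers of testis and male germ line summed to 18.1 to 20.7 CPM in the libraries of the other 3 groups and to 22.3 to 23.4 CPM in mutants on high sugar, the group where Rpt4R was highest. The mean log2 CPM of the 5 tested markers overlapped, at 1.422, 1.624 and 1.475 in that group and 1.168 to 1.585 in the others. In each library 4 to 9 of the 17 were at 0, and dj and twe were at 0 in all. Of the 5 markers tested, topi was higher in mutants on high than on low sugar (1.25 ± 0.35, edgeR adjusted p = 0.0181) and mia was lower in mutants than in wild type on high sugar (-0.91 ± 0.25, 0.0434). Of all genes, 13.5% were called higher in the first of these contrasts and 7.06% lower in the second. The topi call was lost without library B of either mutant group (adjusted p = 0.061 and 0.0848) and by DESeq2 (0.052). That of mia was lost under 11 of 16 alternatives, among them without any 1 of the 6 libraries compared (0.0511 to 0.178). The part of testis tissue in the Rpt4R values was not tested.

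Of 9 subunit genes filed under other names 5 were tested. In mutants between diets 1 of these was called lower, where 15.7% of all genes were. Their log2 fold changes in that contrast ran from -0.59 to 0.11 with a median of -0.33. Those of the 27 ran from -0.56 to -0.08 with a median of -0.30. CG13779 (Sem1), a small acidic subunit of the lid, stood at 106, 80.8 and 96.6 CPM on low sugar in mutants and 60.4, 65.1 and 61.9 CPM on high sugar. It fell by 0.59 ± 0.13 on the log2 scale (edgeR adjusted p = 0.00401), with no overlap, and kept its call under all 17 alternatives. In wild type it stood at 83.0, 85.2 and 84.6 CPM on low sugar and 66.1, 62.0 and 83.4 CPM on high sugar (-0.26 ± 0.13, adjusted p = 0.161). Tbp-1 (Rpt5, -0.45 ± 0.17, adjusted p = 0.0672), CG17331 (Prosbeta4, -0.33 ± 0.14, 0.0975) and Mov34 (Rpn8, -0.32 ± 0.14, 0.0977) missed the threshold in mutants. CG13349 (Rpn13), a ubiquitin receptor, was low at 3.76 to 6.65 CPM, with a difference between diets in mutants of 0.11 ± 0.21 (adjusted p = 0.742). The other 4 of these 9 genes were copies with few counts or none and were not tested.

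Of the factors that assemble the particle or bind it from outside, 2 fell with sugar in mutants. REG, a cap that opens the core without ubiquitin or ATP, stood at 200, 160 and 197 CPM on low sugar in mutants and 119, 122 and 121 CPM on high sugar. It fell by 0.62 ± 0.10 on the log2 scale (edgeR adjusted p = 0.000907) and kept its call under all 17 alternatives. In wild type REG went from 195, 179 and 181 CPM to 135, 127 and 147 CPM and fell by 0.44 ± 0.10 (adjusted p = 0.0103, but 0.0508 without library B on high sugar). The groups did not overlap in either genotype, and the interaction was not called (-0.18 ± 0.15, adjusted p = 0.498). Pomp, a chaperone of core assembly, fell in mutants by 0.36 ± 0.11 (adjusted p = 0.0325). That call was lost without mutant library A on low sugar (-0.28, adjusted p = 0.103) and without library A or B on high sugar (0.0921 and 0.0713), and under 6 of 17 alternatives in all. PI31, ntc, CG8858 (Ecm29) and CG2046 (PSMG1) were not called in any contrast. Of the 6 genes tested in this list, 1 fell in wild type and 2 fell in mutants, and 0 rose, while 11.6% and 15.7% of all genes were called lower.

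Rad23 and Ubqn, shuttle proteins that carry ubiquitin-tagged substrates to the particle, fell in mutants as well. Rad23 stood at 67.3, 61.0 and 60.1 CPM on low sugar in mutants and 44.1, 44.5 and 45.4 CPM on high sugar. It fell by 0.49 ± 0.09 on the log2 scale (edgeR adjusted p = 0.00216). In wild type it stood at 51.9, 52.6 and 51.6 CPM on low sugar and 48.1, 48.4 and 58.1 CPM on high sugar (-0.01 ± 0.09, adjusted p = 0.94). The difference between these responses, the interaction of -0.48 ± 0.13, missed the threshold (adjusted p = 0.0522). Ubqn went from 277, 207 and 219 CPM to 156, 163 and 153 CPM in mutants and fell by 0.57 ± 0.12 (adjusted p = 0.00387), and its interaction was -0.55 ± 0.17 (0.0757). Both falls held under all 17 alternatives. Ubqn was also lower in mutants than in wild type on high sugar, where wild type stood at 194, 224 and 214 CPM (-0.42 ± 0.12, adjusted p = 0.0363). That call was lost without library B or C of wild type (0.135 and 0.0916) or A or C of mutants (0.118 and 0.121), and with the exon of highest mean in place of the gene sum (0.164). The deubiquitinases CG5384 (Usp14, -0.61 ± 0.23, adjusted p = 0.0631) and Uch-L3 (Uch-L5, -0.58 ± 0.25, 0.0974) missed the threshold in mutants, and so did rngo, another shuttle (0.14 ± 0.17, 0.59). In this list 2 of 5 fell in mutants between diets and 0 rose, where 15.7% of all genes were called lower, and in wild type 0 were called, where 23.1% of all genes were.

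**Figure D5:**
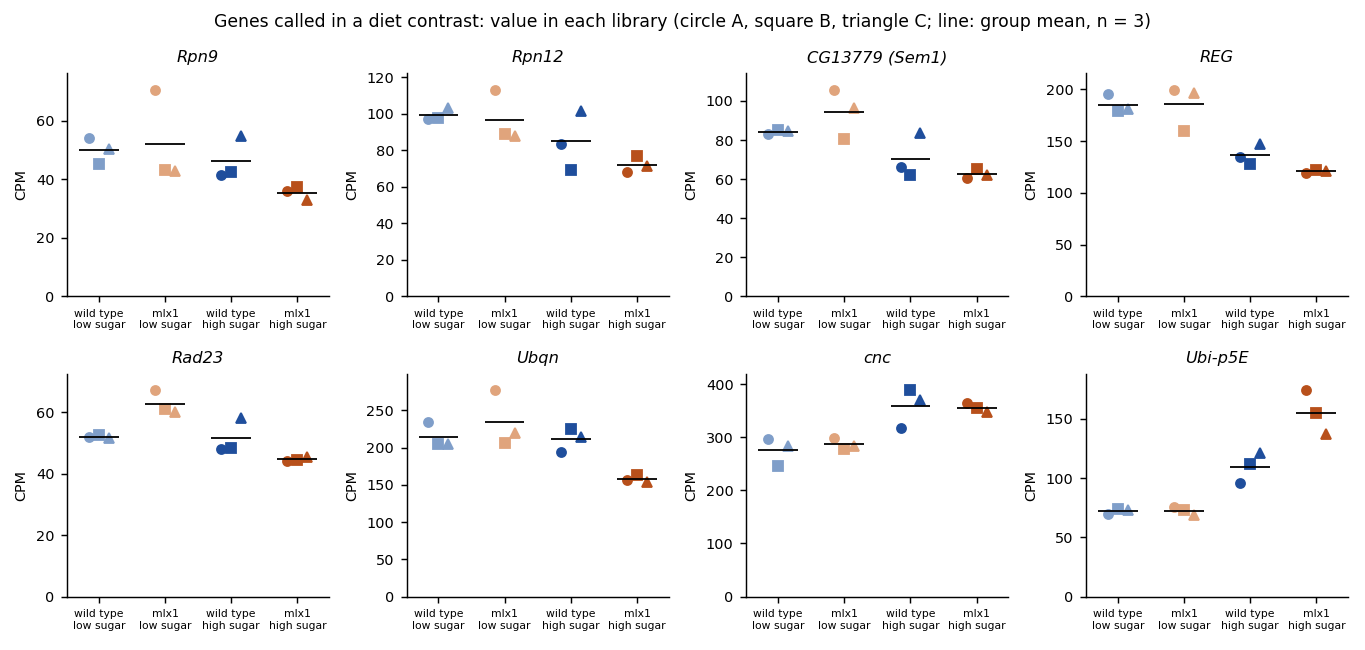
CPM in each library (points, marked by letter) with the group mean (line, n = 3) for 8 genes called in a diet contrast. Rpn9, Rpn12, REG, Rad23, Ubqn and CG13779 are lower in all 3 libraries of mutants on high sugar than on low sugar. Each of these has its highest value in library A of mutants on low sugar. The genes cnc and Ubi-p5E are higher in mutants on high sugar.

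Of 5 genes listed for ubiquitin and its activating enzyme, 4 were tested, all but RpL40. In each genotype 1 was called higher with sugar, where 11.5% of all genes in wild type and 13.5% in mutants were. In both it was Ubi-p5E, which encodes a chain of ubiquitin units. It stood at 69.7, 73.6 and 73.4 CPM in wild type on low sugar and 95.9, 112 and 122 CPM on high sugar, and rose by 0.60 ± 0.11 on the log2 scale (edgeR adjusted p = 0.00309). Mutants went from 75.8, 73.1 and 68.7 CPM to 174, 155 and 137 CPM and rose by 1.10 ± 0.11 (adjusted p = 3.67e-05). Both calls held under all 17 alternatives. On high sugar mutants were above wild type by 0.50 ± 0.11 (adjusted p = 0.0115), a call lost without library A of either group (0.0503 and 0.063), and the interaction was not called (0.49 ± 0.16, adjusted p = 0.0851). The other polyubiquitin gene, Ubi-p63E, was not called, with a wide error (-0.82 ± 0.47 in mutants, adjusted p = 0.221). Near-identical copies can lose reads in counting, and this was not tested for the polyubiquitin genes. The activating enzyme Uba1 (-0.34 ± 0.15, adjusted p = 0.103) and RpS27A (0.13 ± 0.09, 0.32) were not called in mutants either. Of the 6 genes of TER94, the unfoldase also known as p97, and its cofactors, 0 were called by edgeR in any contrast. At an unadjusted p under 0.05 in mutants between diets stood 3 of them, lower, against 21.4% of all genes. Among the 6, TER94 was at -0.48 ± 0.18 (adjusted p = 0.0601).

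Genes of the transcription factor cnc were also read, since its mammalian relatives drive proteasome genes. The gene cnc stood at 298, 247 and 283 CPM in wild type on low sugar and 317, 389 and 371 CPM on high sugar, and rose by 0.38 ± 0.10 on the log2 scale (edgeR adjusted p = 0.0211). In mutants it went from 299, 278 and 284 CPM to 365, 355 and 348 CPM and rose by 0.31 ± 0.10 (adjusted p = 0.0409). The groups did not overlap in either genotype, yet the wild-type call was lost without library B on low sugar (adjusted p = 0.0988) or library B or C on high sugar (0.0915 and 0.0664). The mutant call was lost without any 1 of 5 of the 6 libraries compared (0.0808 to 0.124). Its repressor Keap1 was not called in any contrast, nor was its partner maf-S. Without exons that overlap another gene both cnc calls were lost (0.0861 and 0.199). In all, the wild-type call was lost under 6 of 17 alternatives and the mutant call under 10. Of the 9 transcription factors tested, 2 rose with sugar in wild type, cnc and Mio (Mondo), where 11.5% of all genes were called higher. In mutants 3 rose, these and the stress factor crc, the fly ATF4 (0.32 ± 0.08, adjusted p = 0.0107), where 13.5% of all genes were called higher.

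Most tested textbook targets of cnc rose with sugar in wild type. There 5 of the 7 tested rose and 0 fell, where 11.5% of all genes were called higher. They were Jafrac1, a peroxiredoxin (1.04 ± 0.19, edgeR adjusted p = 0.00249), Gclc, of glutathione synthesis (0.88 ± 0.18, 0.0045), GstD2 (0.79 ± 0.16, 0.004), the autophagy receptor ref(2)P (0.76 ± 0.14, 0.00277) and Trxr-1, a thioredoxin reductase (0.53 ± 0.13, 0.0133). The Trxr-1 call was lost without library B or C of either diet (adjusted p = 0.0522 to 0.0585). In mutants 3 of the 7 rose and 0 fell, where 13.5% of all genes were called higher. These were ref(2)P (1.20 ± 0.14, adjusted p = 8.12e-05), the catalase Cat (0.58 ± 0.19, 0.0369) and GstD2 (0.45 ± 0.16, 0.0494). The Cat call was lost without library B or C on low sugar or A or B on high sugar (adjusted p = 0.101 to 0.122). That of GstD2 was lost under 11 of 17 alternatives (adjusted p up to 0.269). On high sugar mutants were above wild type in Cat (0.85 ± 0.19, adjusted p = 0.011) and below it in Jafrac1 (-0.69 ± 0.19, 0.0294) and Trxr-1 (-0.62 ± 0.13, 0.00775), where 6.80% of all genes were called higher and 7.06% lower. The Jafrac1 call was lost without library B or C of wild type or A or C of mutants (0.0757 to 0.126), and that of Cat without library B of wild type (0.0508).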

How the data were processed

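The deposited file is a table of unnormalised counts per exon entry, in 12 libraries of polyadenylated RNA, made by the authors. Per the submitters' processing notes, BWA 0.5.9, SAMtools and HTSeq 0.6.1 were used; for the build, annotation and strand no value is given in the sources. Counts were summed per gene name; 42 nameless entries held at most 0.0148% of a library. Library totals ranged from 8923055 to 12506335. The column names end in L2 for low and L3 for high sugar; if this tag marks a batch, it cannot be told apart from diet. They also give 1 h where the labels give 1.5 h.

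Genes were filtered with filterByExpr (10045 left, 29 of the 40 among them) and fitted with edgeR 4.0.16 in R 4.3.3 (TMM factors 0.961 to 1.05, robust quasi-likelihood, 1 mean per group, 8 residual degrees of freedom). Tests were two-sided, and the error after ± of a log2 fold change is its SE. Names were matched to current symbols through reference tables, whose coordinates were not used. Subunit genes named are those called, 7 fixed by name for levels, the 5 most alike in pattern, and others for their place in a count. The genes, lists and rules were chosen with earlier results of these data known. Same-letter libraries of the 2 low-sugar groups deviated together (r = 0.744, 0.687 and 0.174 for A, B and C), so a fit with the letter as a block was added there. No label says what a letter stands for. DESeq2 1.42.0, leaving out libraries and other settings were alternatives, and the model was tested on simulated data. A planned search of promoter and protein sequences was not run. Since the labels trace no library to its own culture, p-values cover only the spread between libraries, which may be technical.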

Additional observations from a re-analysis of the deposited data

How the results depend on the processing

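In wild type between diets 0 genes were called under every alternative except the cuticle covariate (4), the fit without the library lowest in cuticle genes of each group (9) and the fit without 3 libraries, wild-type and mutant A on low sugar and wild-type C on high sugar (10). In mutants between diets the count of 2 became 16 with the cuticle covariate, 7 with no filter on counts, 7 with a floor of 5 CPM in 3 libraries, 5 without exons overlapping another gene, 6 with DESeq2, 1 with only the groups compared, 0 without the library lowest in cuticle genes of each group and 5 without the 3 libraries. The 3 libraries were the highest in subunit genes of their groups, so that fit is no support. Without any 1 library it ranged from 0 to 6. With the letter as a replicate block it was 0. The block changed no other count, also in a fit of only the low-sugar groups. There r of same-letter libraries was 0.744, 0.687 and 0.174 for A, B and C. In each other pair of groups some letters had an r below 0. The highest r among those pairs was 0.570, for library B of mutants on low and wild type on high sugar. Over all 18 same-letter pairs r was -0.538 to 0.744 and 8 were over 0.1, and libraries matched their own letter best in 14 of 36 cases. Between genotypes on high sugar the cuticle covariate gave 4 against 0. RLE factors and the exon with the highest mean changed no count, and counts between genotypes on low sugar and for the interaction were 0 throughout. The cause of these shifts was not tested. A share of all genes called is given only for the cuticle covariate and the fit without the library lowest in cuticle genes. Under the other alternatives the counts therefore cannot be read as particular to the subunit genes. For called genes, the 40 and the related lists together, 577 pairs of gene and alternative gave the same call in 485, a lost call in 92 and a changed sign in 0. The fits without 3 or 4 libraries, the block on low sugar alone, and all alternatives for related genes, were added after the data were seen. With 3 libraries a group, the median SE of a subunit gene's diet response was 0.145 on the log2 scale in mutants. Overlapping exons, near-identical copies and unknown strand limit Rpn9 and the paralogs, and copies may also limit the polyubiquitin genes.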
